A study of Mus musculus with 21 samples.

Results

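H3K79me2, the dimethylation of histone H3 at lysine 79, was mapped by chromatin immunoprecipitation sequencing (ChIP-seq) in mouse embryonic stem (ES) cells after Cdk1 inhibition. Every peak of both deposited H3K79me2 lists was taken. These were 22352 peaks from cells given 3-MB-PP1 and 13437 peaks from cells given the solvent DMSO, together 35789 of the 43713 peaks in the 3 peak lists of the series. Cells of both conditions were V6.5 ES cells whose Cdk1 is an analog-sensitive form (Cdk1as/as), grown without feeder cells. The treated cells received 1 µM 3-MB-PP1 for 4 days and the control cells received DMSO for 4 days. No cells without the analog-sensitive allele were compared here, so an action of the compound on other proteins cannot be told apart from the block of Cdk1. Each condition had 1 ChIP library, with 1 input library named as its control in the peak names. Values are therefore given without a test, with no replicate check, and a difference between the lists is a difference between these 2 libraries.

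Dot1l is the methyltransferase that places methyl groups on lysine 79 of histone H3. It acts with partners of the transcription elongation machinery, and the dimethylated form typically lies over the bodies of transcribed genes, most densely towards their starts. No dedicated demethylase is firmly established, and the mark is thought to be diluted when new histones are laid down in dividing cells. Cdk1 is the cyclin-dependent kinase that drives entry into mitosis, and an analog-sensitive kinase has an enlarged pocket that takes a bulky inhibitor such as 3-MB-PP1.

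The machinery of the mark was transcribed in the ES cell RNA libraries of the series, which were not the cells used for ChIP. Their sample labels give Cdk1as/as and the design text of the series calls them wild type, so their genotype is in doubt. Dot1l had 14.5, 13.7 and 12.9 FPKM in the 3 libraries, and Cdk1 had 292, 233 and 305 FPKM. All 22 genes of a list of Dot1l, its partners and elongation factors had a mean of at least 1 FPKM. Their median was 29.9 FPKM, and the lowest mean was 5.82 FPKM for Mllt1, a reader protein of elongation complexes. The 17 listed Cdk1 and mitotic genes also all passed 1 FPKM, with a median of 109 FPKM. All 8 ES cell markers did so too, from 55.2 FPKM for Zfp42 to 929 FPKM for Pou5f1. The share of all 53796 genes in the RNA data above 1 FPKM was not taken, so these counts do not set the lists apart. Of 9 markers of fibroblasts and feeder cells, 7 had a mean of at least 1 FPKM, with Tagln highest at 121 FPKM, Dcn at 0.158 FPKM and Lum listed at 0. The part of such cells in the H3K79me2 lists was not tested.

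Peak coordinates were on mm9. In both H3K79me2 lists, 7 of 20 chromosomes held peaks past their last GRCm38 gene, and mm9 is the other build in the submitters' processing notes. On chromosome 7 the last peak of the 3-MB-PP1 list lay 7.15 Mb past that gene, and the last peak of the DMSO list 6.80 Mb past it. Only GRCm38 gene positions were at hand, so peaks were not joined to genes, and results are given by region. The depth of the ChIP libraries is unknown, and the number and width of called peaks move with depth and enrichment. Their part in the differences below was not tested.

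Called H3K79me2 peaks covered 132.0 Mb in cells given 3-MB-PP1 and 59.9 Mb in cells given DMSO, a ratio of 2.21. The number of peaks had a ratio of 1.66. Peaks had a median width of 2320 bases with 3-MB-PP1 and 2073 bases with DMSO. The lists differed more at the broad end: the widest peak was 179587 bases with 3-MB-PP1 and 146401 bases with DMSO, and the 95th percentile of width was 23754 bases with 3-MB-PP1 and 16596 bases with DMSO. A stretch over 20 kb occurred 1467 times with 3-MB-PP1 and 484 times with DMSO. These broad domains made up 40.3% of the bases of the 3-MB-PP1 list and 26.2% of the bases of the DMSO list. Above 50 kb there were 227 peaks with 3-MB-PP1 and 45 with DMSO, and above 100 kb there were 26 with 3-MB-PP1 and 5 with DMSO.

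**Figure D1:**
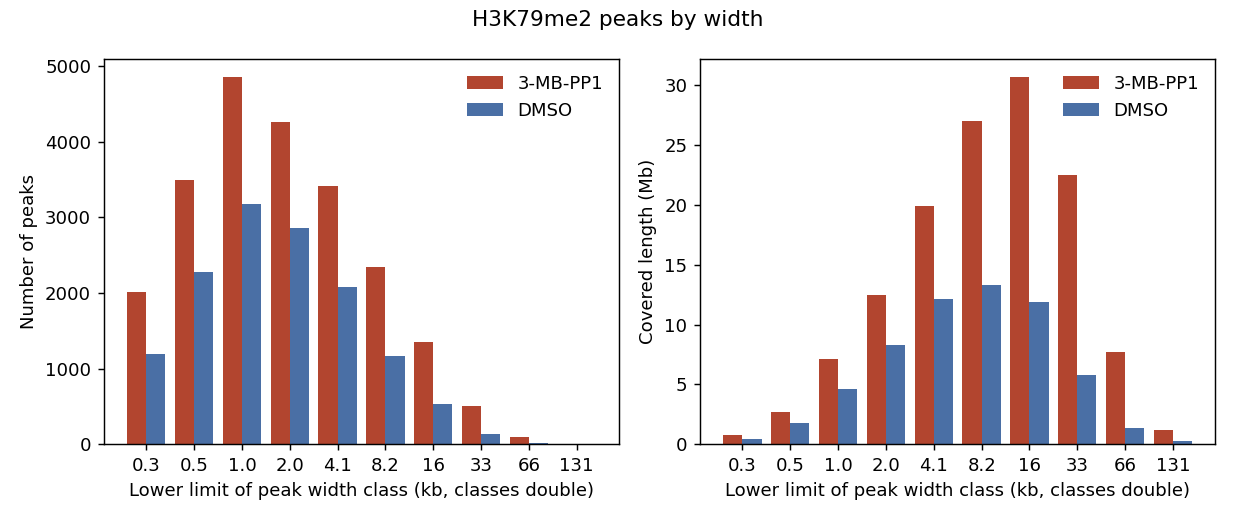
Number of H3K79me2 peaks (left) and covered length in Mb (right) by peak width, in classes that double in width, for the 3-MB-PP1 and the DMSO list. The 3-MB-PP1 bars are higher in each class, and the tallest of their length bars stands at 30.7 Mb, against 11.9 Mb with DMSO.

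Scores were lower in the 3-MB-PP1 list as a share of its peaks, although this longer list had more peaks above some limits. The score is a whole number the authors gave each peak, with a minimum of 10 in both lists, and no source used here says what it measures. Its median was 19 with 3-MB-PP1 and 24 with DMSO, and its maximum was 481 with 3-MB-PP1 and 583 with DMSO. A score of 20 or more was given to 11085 peaks with 3-MB-PP1 and 8969 with DMSO, and a score of 100 or more to 1536 with 3-MB-PP1 and 1118 with DMSO. A score of 200 or more was given to 164 peaks with 3-MB-PP1 and 232 with DMSO. As shares of each list, scores of 20 or more made up 49.6% with 3-MB-PP1 and 66.7% with DMSO. Those of 100 or more made up 6.87% and 8.32%, and those of 200 or more 0.734% and 1.73%, in the same order. Weighted by length, the mean score was 68.7 with 3-MB-PP1 and 70.4 with DMSO. Wider peaks had higher scores in both lists, with a Spearman correlation across peaks of 0.687 with 3-MB-PP1 and 0.621 with DMSO.

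Nearly all H3K79me2 regions of control cells were also called after Cdk1 inhibition when all peaks were taken, and the reverse did not hold. Of the 3-MB-PP1 peaks, 8382 of 22352 shared at least 1 base with a DMSO peak, which is 37.5% (Wilson 95% interval 36.9 to 38.1, for counting error only). Of the DMSO peaks, 13010 of 13437 shared at least 1 base with a 3-MB-PP1 peak, which is 96.8% (96.5 to 97.1). The shared stretches came to 58.1 Mb, which is 44.0% of the 3-MB-PP1 bases and 97.0% of the DMSO bases. This order turned round when the 3-MB-PP1 list was limited to the 3521 highest-scored peaks with the covered length of the DMSO list. Of those, 99.8% met a DMSO peak, and 44.4% of DMSO peaks met one of them. That cut was unequal, with a lowest score of 59 for the 3-MB-PP1 peaks and 10 for the 13437 DMSO peaks. With scores of at least 21 in both lists the order held, at 60.2% of 3-MB-PP1 and 95.6% of DMSO peaks. With reciprocal overlap of at least 50%, 17.4% of 3-MB-PP1 peaks and 28.9% of DMSO peaks had a partner. Without overlap in the full lists were 13970 peaks of the 3-MB-PP1 list and 427 peaks of the DMSO list.

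Overlap went with the score. Among 3-MB-PP1 peaks, 3.00% of those scored 10 to 14 met a DMSO peak, 31.2% of those scored 20 to 29, 81.0% of those scored 30 to 49, and all 1536 of those scored 100 or more. Among DMSO peaks, 91.4% of those scored 10 to 14 met a 3-MB-PP1 peak, as did all 1118 scored 100 or more. The 3-MB-PP1 peaks without a DMSO partner were narrow and low, with a median width of 1347 bases, a median score of 15 and a highest score of 79. They nevertheless held 31.3 Mb. The 427 DMSO peaks without a partner had a median width of 691 bases, a median score of 17 and a highest score of 92, and they held 0.370 Mb.

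**Figure D2:**
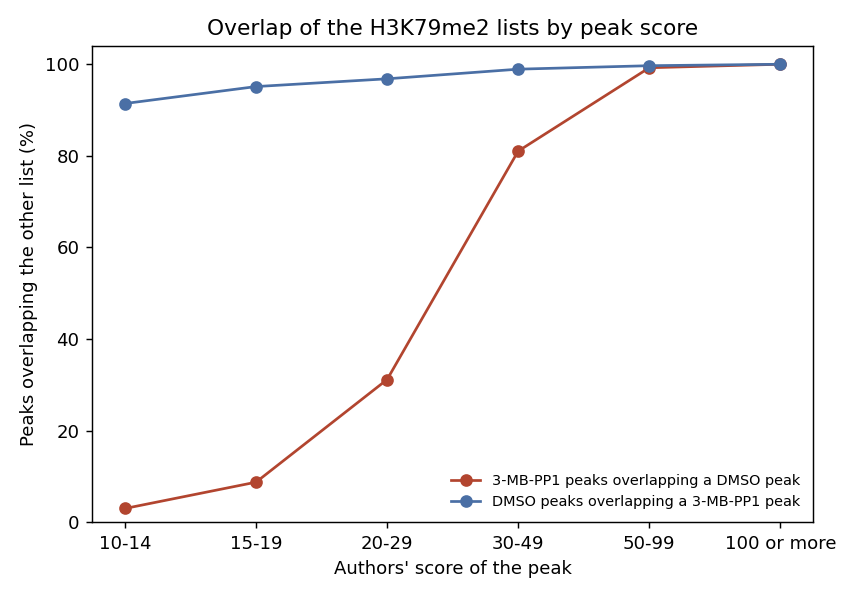
Percentage of H3K79me2 peaks that share at least 1 base with the other list, by the authors' score, for the 3-MB-PP1 and the DMSO list. The 3-MB-PP1 line climbs with the score from 3.00% to 100%, while the DMSO line stays at 91.4% or above.

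Peaks called with 3-MB-PP1 alone lay nearer to other 3-MB-PP1 peaks of any class than to DMSO peaks. Their median distance to the nearest other peak of their own list was 2.23 kb. To the nearest 3-MB-PP1 peak that met a DMSO peak it was 17.5 kb, and to the nearest DMSO peak 20.3 kb. The 3-MB-PP1 peaks that met a DMSO peak themselves lay a median of 18.2 kb from the nearest other such peak. The full 3-MB-PP1 list is the largest of these reference sets, which favours a short distance. Close spacing was also common in that list as a whole, where 46.6% of gaps between neighbouring peaks were under 5 kb. Within 5 kb of a DMSO peak lay 16.4% of the peaks called with 3-MB-PP1 alone, and within 100 kb lay 86.0%. Those beyond 100 kb had a median width of 1278.5 bases and a median score of 15, and those within 5 kb had 1372 bases and a score of 16. The DMSO peaks without a partner had a median distance of 1.59 kb to the nearest 3-MB-PP1 peak. The highest-scored peak called with 3-MB-PP1 alone, on chromosome 7 (mm9, 72838386 to 72840384), had a score of 79 and lay 170 kb from the nearest DMSO peak. The highest-scored peak called with DMSO alone, on chromosome 2 (25078925 to 25079821), had a score of 92 and lay 2.25 kb from the nearest 3-MB-PP1 peak.

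Of the bases covered in the 3-MB-PP1 list alone, 74.0 Mb in all, 31.3 Mb (42.3%) were peaks without a DMSO partner. A further 28.5 Mb (38.5%) lay outward of the DMSO peaks that the same 3-MB-PP1 peak overlapped, and 14.2 Mb (19.2%) filled gaps between DMSO peaks. Most of these bases thus lay in peaks that also touched a DMSO peak. Covered in the DMSO list alone were 1.82 Mb, of which 1.26 Mb lay outward of a 3-MB-PP1 peak.

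**Figure D3:**
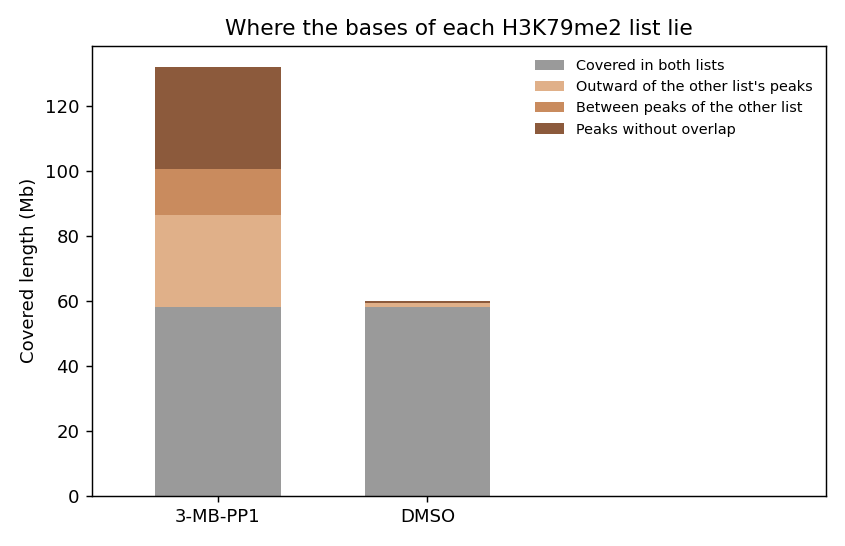
Covered length in Mb of the 3-MB-PP1 and the DMSO list, split into bases covered in both lists (58.1 Mb in each bar) and bases covered in that list alone, by where they lie relative to the other list. The 3-MB-PP1 bar adds 28.5 Mb outward of DMSO peaks, 14.2 Mb between them and 31.3 Mb in peaks without overlap, and the DMSO bar adds 1.82 Mb in all.

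Many DMSO peaks were joined into longer domains in the 3-MB-PP1 list. A total of 2337 peaks of the 3-MB-PP1 list, with a median width of 18398 bases and a median score of 60, each took in 2 or more DMSO peaks that touched no other 3-MB-PP1 peak. The 6994 DMSO peaks under them had a median width of 2084.5 bases and a median score of 22. These domains held 56.4 Mb, or 42.7% of the 3-MB-PP1 bases. The opposite arrangement, 1 DMSO peak over several 3-MB-PP1 peaks, took in 154 peaks of the 3-MB-PP1 list and 76 of the DMSO list. Counting peaks in mixed arrangements as well, 2379 peaks of the 3-MB-PP1 list lay over 2 or more DMSO peaks, 295 over 5 or more and 31 over 10 or more. The bridged gaps were short: the 4746 of them had a median of 1976 bases, against 12927 bases for all 13417 gaps between neighbouring DMSO peaks. All gaps include the bridged ones, and a gap counted as bridged only if a single 3-MB-PP1 peak spanned it, which favours short gaps. Of gaps under 2 kb, 87.8% were bridged, of gaps of 5 to 10 kb 41.8%, of gaps of 20 to 50 kb 0.695%, and of the 4480 longer gaps none. The smallest gap between neighbours was 1165 bases with 3-MB-PP1 and 1161 bases with DMSO.

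The domain that spanned most DMSO peaks lay on chromosome 14 (mm9, 12386490 to 12542023), was 155.534 kb wide and had a score of 48. It took in 24 DMSO peaks of 0.353 to 39.663 kb, with scores of 12 to 35, which summed to 106 kb. A domain of 141 kb on chromosome 4 (149655833 to 149796971), with a score of 105, spanned 18 DMSO peaks that summed to 102 kb and had scores of 13 to 76. On chromosome X (74756637 to 74877266) a domain of 121 kb with a score of 54 spanned 18 DMSO peaks that summed to 62.3 kb and had scores of 13 to 90. In each of these regions the DMSO cells already had the mark over much of the stretch, in pieces.

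**Figure D4:**
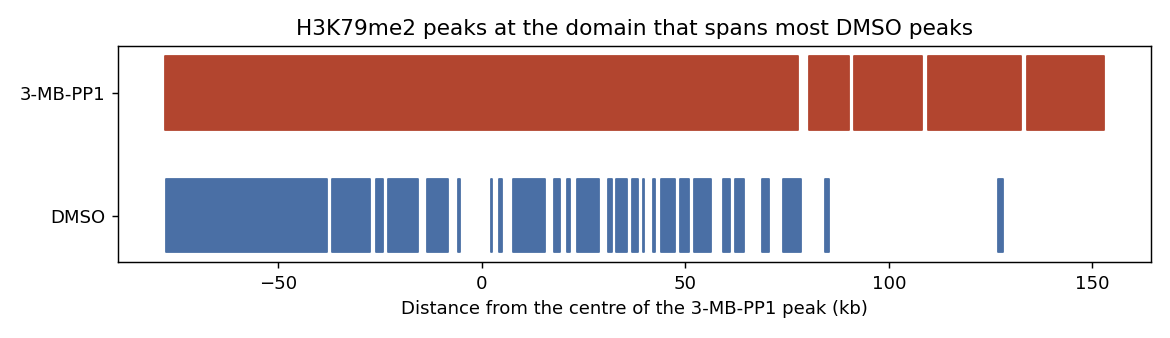
Peaks of the 3-MB-PP1 list (upper row) and of the DMSO list (lower row) at the chromosome 14 domain, with the distance in kb from the centre of the widest 3-MB-PP1 peak. The single 3-MB-PP1 peak of 155.534 kb lies over 24 separate DMSO peaks.

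Some of the widest domains met a DMSO domain above the same width limit, and most did not. Of the 26 domains over 100 kb in the 3-MB-PP1 list, 5 (19.2%) met a DMSO domain over 100 kb. Of the 227 over 50 kb, 44 (19.4%) met one over 50 kb. These shares were limited by the DMSO list, which had 5 domains over 100 kb and 45 over 50 kb. All 5 and 44 of the 45 met a 3-MB-PP1 domain above the same limit. The chromosome 14 and chromosome 4 domains above, the third and the fifth widest, lay over DMSO peaks of at most 39.7 and 28.1 kb. The widest peak of the 3-MB-PP1 list, 180 kb on chromosome 10 (66517442 to 66697028) with a score of 137, lay over 6 DMSO peaks. These included the widest of the DMSO list, 146 kb with a score of 125. On chromosome 13 (44826704 to 44987963) a 3-MB-PP1 peak of 161 kb with a score of 239 lay over the next widest DMSO peak, 135 kb with a score of 219. On chromosome 8 (125424023 to 125570187) a 3-MB-PP1 peak of 146 kb had a score of 183, and the DMSO peak of 130 kb there had a score of 114. Over all broad domains, 464 of the 1467 in the 3-MB-PP1 list (31.6%) met a broad domain of the DMSO list, and 476 of the 484 in the DMSO list (98.3%) met one of the 3-MB-PP1 list. Of those 1467 domains, 1082 (73.8%) lay over 2 or more DMSO peaks, 357 over 1 and 28 over none. DMSO peaks covered a median of 64.2% of their length.

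Width could be compared most directly at the 5815 regions where 1 peak of each list met only each other. These peaks had a median width of 4980 bases with 3-MB-PP1 and 2181 bases with DMSO, and the median log2 ratio of widths was 0.70 (quartiles 0.17 and 1.65). The 3-MB-PP1 peak was the wider in 5014 regions (86.2%) and the narrower in 798. It was at least 2-fold wider in 2345 regions, or 40.3% of all matched regions, and at least 2-fold narrower in 78, or 1.34%. Both edges lay further out in 3864 regions (66.4%) and further in in 277 (4.76%). The 3-MB-PP1 peak reached a median of 539 bases beyond the left edge of the DMSO peak and 504 bases beyond the right edge. The median log2 width ratio fell to 0.32 when the 3-MB-PP1 list was limited to its highest-scored peaks with the covered length of the DMSO list, and to 0.33 with reciprocal overlap of at least 50%.

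The width ratio varied with the width and score of a region, and how it varied depended on the list used to order them. Ordered by the geometric mean width of the pair and cut into 5 equal groups, the matched regions had median log2 width ratios of 1.00, 1.17, 1.01, 0.63 and 0.24 from the narrowest group to the widest. Ordered by DMSO width, which favours high ratios in narrow groups, they were 2.19, 1.24, 0.71, 0.47 and 0.18. Ordered by 3-MB-PP1 width, which favours low ratios there, they were 0.36, 0.88, 0.93, 0.84 and 0.51. The widest group was thus below the 3 middle groups in each order, and the narrowest group had no fixed place. Ordered by geometric mean score, the ratios were 1.74, 1.43, 0.76, 0.42 and 0.20 from the lowest group to the highest. At the 349 regions over 20 kb in either list the ratio was 0.23, and 80 (22.9%) were at least 2-fold wider with 3-MB-PP1. The 187 of these over 20 kb in both lists, a choice that leaves out regions broad in 1 list alone, had a ratio of 0.08. Their scores had a median of 151 with 3-MB-PP1 and 86 with DMSO, with a median log2 score ratio of 0.82 and a higher score with 3-MB-PP1 at 168 of 187.

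Over all matched regions the score had a median of 46 with 3-MB-PP1 and 33 with DMSO, and the median log2 score ratio was 0.42 (quartiles −0.11 and 0.90). It was higher with 3-MB-PP1 in 4046 regions (69.6%) and lower in 1658. A score at least 2-fold higher occurred in 1202 regions, or 20.7%, and at least 2-fold lower in 287, or 4.94%. Across regions the scores of the lists had a Spearman correlation of 0.756 and the widths one of 0.626. The ratios of width and score had a Spearman correlation of 0.219 over the 5815 regions, which share both libraries.

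**Figure D5:**
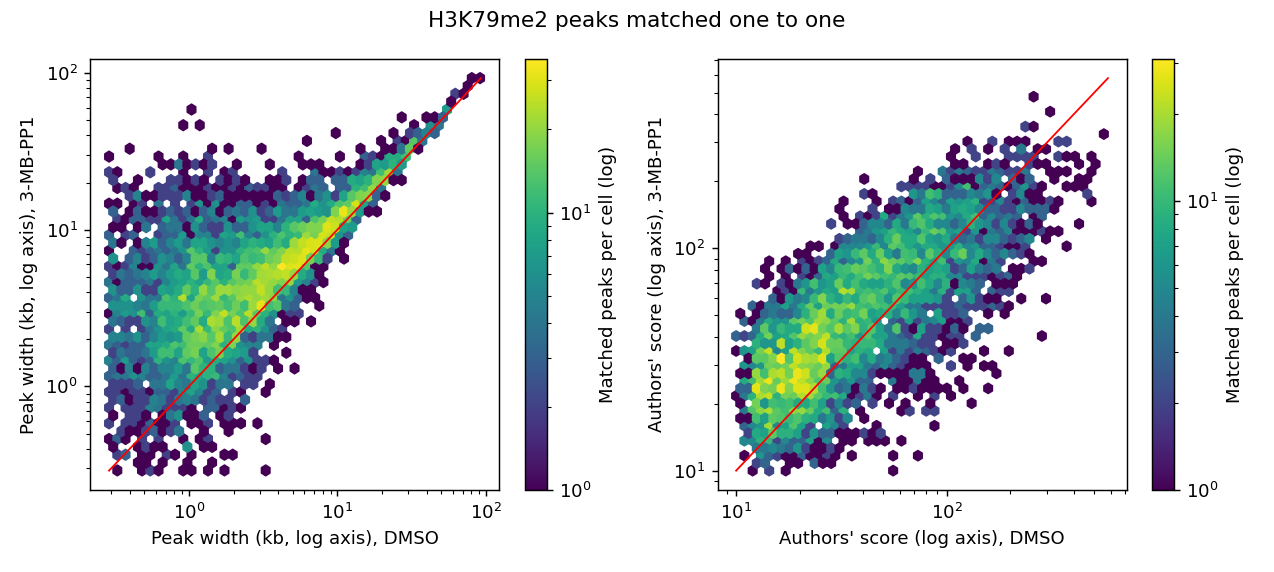
Peak width in kb (left) and authors' score (right) of the 5815 matched regions, 3-MB-PP1 on the vertical and DMSO on the horizontal axis, all axes logarithmic, with the colour giving the number of regions per cell and the red line equality. Most regions (86.2%) lie above the line of equal width, and most of the highest DMSO scores lie below the line of equal score.

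In the highest-scored regions the direction of the score difference depended on the list that chose them. Over DMSO peaks scored 200 or more, 232 in number, the highest-scored 3-MB-PP1 peak had a median score of 166.5, against 244.5 for the DMSO peaks, and was higher in 25 (10.8%). Over DMSO peaks scored 10 to 19 the medians were 40 with 3-MB-PP1 and 16 with DMSO, and the 3-MB-PP1 peak was higher in 96.0%. Choosing peaks on the DMSO score favours high DMSO values, so the order was also taken on the 3-MB-PP1 score. At the 164 peaks of the 3-MB-PP1 list scored 200 or more, the medians were 228.5 with 3-MB-PP1 and 189 with DMSO, and 68.3% were higher with 3-MB-PP1. Ordered by the geometric mean of both scores, the top 1 of 5 groups of DMSO peaks had median scores of 113 with 3-MB-PP1 and 91 with DMSO, and 62.1% were higher with 3-MB-PP1. The highest-scored peak of the DMSO list, on chromosome 16 (22251070 to 22267034), had a score of 335 with 3-MB-PP1 and 583 with DMSO. The highest-scored peak of the 3-MB-PP1 list, on chromosome 9 (100977254 to 100989364), had a score of 481 with 3-MB-PP1 and 254 with DMSO.

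On each chromosome, called peaks of the 3-MB-PP1 list covered a greater length than those of the DMSO list. The ratio of covered length ran from 2.05 on chromosome 11 to 2.50 on chromosome X, which had 2.47 Mb with 3-MB-PP1 and 0.988 Mb with DMSO. Chromosome X had the lowest score ratio of the 20 chromosomes. Its 163 matched regions had a median score of 34 with 3-MB-PP1 and 35 with DMSO, a median log2 score ratio of −0.04, and 48.5% were higher with 3-MB-PP1. The 5652 autosomal regions had a median score of 47 with 3-MB-PP1 and 32.5 with DMSO, a ratio of 0.43, and 70.2% were higher with 3-MB-PP1. The autosomes ran from 0.30 on chromosome 11 to 0.58 on chromosome 18. The median log2 width ratio was 0.77 on chromosome X and 0.70 over the autosomes, which ran from 0.59 on chromosome 10 to 1.02 on chromosome 12. Chromosome X carried few matched regions, and whether the difference exceeds the spread between cultures could not be tested with 1 library per condition.

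In windows of 1 Mb, far wider than the peaks, most windows with a peak of 1 list also held a peak of the other. Since 97.0% of the DMSO bases lay within 3-MB-PP1 peaks, this was nearly fixed for windows with a DMSO peak. Of 2582 windows, 1709 held peaks of both lists, 124 of the 3-MB-PP1 list alone, 5 of the DMSO list alone and 744 of neither. The 868 windows without a DMSO peak held 0.843 Mb of the 3-MB-PP1 bases. The ratio of covered length was higher in windows with less covered length, by an amount that depended on the order. In the 257 windows with up to 5 kb covered with DMSO, the medians were 10.5 kb with 3-MB-PP1 and 2.52 kb with DMSO, and the summed lengths had a ratio of 5.85. In the 449 windows with over 50 kb covered with DMSO, the medians were 143 kb with 3-MB-PP1 and 73.4 kb with DMSO, and the ratio was 1.90. Choosing windows with little DMSO cover favours a high ratio. Ordered by 3-MB-PP1 cover instead, which favours a low one, the ratio was 2.67 in the 134 windows with up to 5 kb and 2.18 in the 989 windows with over 50 kb.

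The Thio-ChIP list of the series, which records DNA near proteins that Cdk1 had labelled, has 7924 peaks from 1 library. Like the H3K79me2 lists, it held peaks past the last GRCm38 gene on 7 of 20 chromosomes. Of its 7924 peaks, 3522 (44.4%) met a 3-MB-PP1 peak and 2852 (36.0%) met a DMSO peak, and 4306 (54.3%) met neither. Of all 3-MB-PP1 peaks, 15.9% held a Thio-ChIP peak. The share was 46.9% for domains that bridged DMSO peaks, 34.2% for matched peaks and 2.76% for peaks without a DMSO partner. These classes had median widths of 18398, 4980 and 1347 bases. In the DMSO list, bridged and matched peaks stood in the opposite order, at 14.4% of peaks under bridging domains and 30.5% of matched peaks. Of the 427 DMSO peaks without a partner, whose median width was 691 bases, 9.60% held a Thio-ChIP peak. The part of peak width in these shares was not tested. At 1184 matched regions over 2 kb wide with DMSO, a Thio-ChIP peak lay within 1 kb of 1 DMSO edge only. There the 3-MB-PP1 peak reached a median of 208 bases beyond the edge with the Thio-ChIP peak and 1168.5 bases beyond the other edge. At 1901 matched regions with no Thio-ChIP peak at either edge, the medians were 484 bases on the left and 426 bases on the right. Among the 1184 regions with a Thio-ChIP peak at 1 edge, the extension was the larger at the edge without it in 790.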

How the data were processed

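The H3K79me2 peak lists were deposited by the authors with a position and a whole-number score per peak, and no source used here says what the score means. Peak names in the deposited lists pair each ChIP library with the input of its own condition. Per the submitters' processing notes, the tools included Bowtie, Bowtie2 2.2.9, MACS 1.4.2 and MACS2 2.1.1, none tied to a list, and the builds mm9 and GRCm38. The authors deposited FPKM per gene for the ES cell RNA libraries.

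Starts were read as counted from 0 and are printed as counted from 1. Lists were intersected in Python 3.11.15 with pandas 2.3.3 and NumPy 2.4.6, and the code was tested on simulated lists with known overlaps. Peaks overlapping by at least 1 base were grouped into connected sets and classed as matched 1 to 1, bridging, split or mixed. Named regions were, per list, the 5 widest, the 5 highest-scored and the 5 highest-scored without overlap, and the 5 peaks of the 3-MB-PP1 list that bridge most DMSO peaks, of which the text prints some. The regions, gene lists and comparisons were chosen with earlier results of these data known. Comparisons with gene spans, expression and Dot1l knockout response by peak class were not run, because the lists are on mm9 and the genes on GRCm38. No counts or depths come with the lists, so depth is unknown. Some expression values are not reported here.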

Additional observations from a re-analysis of the deposited data

How the results depend on the processing

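Across 12 results, 90 alternatives were run, 22 of them chosen after seeing the data. Of the 90, 54 kept the direction and lay within 1.5-fold or the 95% interval of the reported value. Another 35 moved further and 1 turned its direction. Shares were judged by the interval, and ratios and counts by the 1.5-fold limit, so these totals mix unlike limits. The fall of the median log2 width ratio from 0.70 to 0.32 is among the 54. The rise in the share of wider matched peaks from 86.2% to 87.1% is among the 35. A turn could be counted only for ratios. Overlap shares and peak counts whose order between the lists turned at equal covered length are therefore among the 35. The cause was not tested. With the 13437 highest-scored 3-MB-PP1 peaks, as many as in the DMSO list, the ratio of median widths was 2.24, overlap held for 59.7% of 3-MB-PP1 and 94.4% of DMSO peaks, and 5412 and 749 peaks had none. With scores of at least 21 in both lists, the ratio was 1.75, overlap held for 60.2% and 95.6%, 87.1% of matched peaks were wider, 1221 peaks bridged and 4156 of the 3-MB-PP1 list had no partner. With 3-MB-PP1 peaks taken by score up to the covered length of the DMSO list, an alternative chosen after seeing the data, 3521 peaks sufficed. Their lowest score was 59, against 10 in the DMSO list. The ratio of peak numbers was then 0.262, turning its direction, and the ratio of median widths was 5.46. Overlap held for 99.8% of 3-MB-PP1 and 44.4% of DMSO peaks, 83.6% of matched peaks were wider at a median log2 ratio of 0.32, 1208 bridged, and 7 and 7474 had no partner. Joining peaks within 5 kb, also chosen after seeing the data, gave 56.7% and 97.8% overlap, 89.4% wider, 965 bridging, and 5179 and 186 without a partner. Asking for overlap of 50% of the smaller peak gave 36.8% and 95.3%, and of 50% of the peak itself 21.3% and 94.5%. Reciprocal overlap of 50% gave 17.4% and 28.9%, 81.1% wider at a log2 ratio of 0.33, 0 bridging by construction, and 9558 DMSO peaks without a partner. In covered bases 44.0% of the 3-MB-PP1 list was shared. Domains over 50 kb had a ratio of 5.04, against 3.03 over 20 kb. The ratio of peak numbers with equal numbers, and that of covered length with equal length, are fixed at about 1 by construction and are not counted. Joining within 1 kb changed nothing, since no gap was that short. Its alternatives are counted among the 54 although they could not have moved. Alternatives for genes were not run, because the lists could not be joined to genes. No paired analysis was possible because each condition had 1 library.

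Peak calls depend on depth and enrichment, which these lists do not give, so the differences in number, width and covered length cannot be told apart from a difference between the libraries. No result has a replicate.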
